A study of Mus musculus with 43 samples.

Results

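The interferon-inducible GTPases described here are 10 mouse genes of the guanylate-binding protein (GBP) and immunity-related GTPase (IRG) families, chosen by name: Gbp2, Gbp3, Gbp5, Gbp7, Gbp9, Irgm1, Irgm2, Igtp, Iigp1 and Tgtp2. Their symbols were matched to the Ensembl gene identifiers of a count table of 37991 genes, which gave 9 of the 10. Gbp5 had no matching identifier and its level was not analysed here. Across newborn lung phagocytes these transcripts were most abundant in the Ly6Chi sort and least abundant in alveolar macrophages. Under high oxygen, 2 of the 5 libraries of each population held most members above the normoxic range, fewest in Ly6Chi (8 and 5 of 9). The other hyperoxic libraries held 0 to 2 members above it. No member differed between the oxygen groups by the test used.

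GBPs are large dynamin-like GTPases that gather on the membranes of vacuoles holding intracellular pathogens and on cytosolic bacteria, where they help to break membranes open and to trigger inflammasomes. IRGs are smaller GTPases of the same defence, much expanded in mice: the regulators Irgm1, Irgm2 and Igtp (also called Irgm3) sit on host membranes and hold the effectors Iigp1 (Irga6) and Tgtp2 (Irgb6) inactive there, while the effectors load onto pathogen vacuoles that lack the regulators. Interferon gamma is the main inducer of both families, acting on GAS elements and through IRF1, and type I interferons act on ISRE elements. In macrophages both families are therefore widely used as a readout of interferon exposure.

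RNA was measured by SMART-Seq v4 and Nextera XT sequencing in mononuclear phagocytes sorted from perfused, digested lungs of neonatal C57BL/6 mice. Newborn pups had breathed oxygen at a fraction of 0.9 (hyperoxia) or room air (normoxia) for 1.5 days, and the labels name no genetic modification. Cells were gated into 4 sorts. Alveolar macrophages (AM) were SiglecFhi CD11chi, and dendritic cells (DC) were MHCIIhi CD11chi. Ly6Chi monocytes or macrophages were CD11clo, and Ly6Clo monocytes or macrophages were CD11chi. The 43 libraries formed 8 groups, with 5 hyperoxic libraries in each population against 6 normoxic ones in AM, DC and Ly6Chi and 5 in Ly6Clo. The labels give 3 litters, numbered 93, 100 and 108, and the series' design text says that litters were mixed before assignment. In every population the hyperoxic group held 2 libraries of litter 93 (replicates 1 and 2), 1 of litter 100 (replicate 3) and 2 of litter 108 (replicates 4 and 5). In normoxia each litter gave 2 libraries per sort, but Ly6Clo has only 1 from litter 108. Replicates are numbered by order of deposit. No label says which pup a library came from, so the p-values below measure only the spread between libraries, and libraries of several sorts may come from the same pup.

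Library totals ranged from 551960 to 2403861 counts. The highest count of any member in any library was 1316, or 0.523 counts per exonic base, against a highest value of 1.73 over all genes. No gene exceeded 4012 counts in any library. Whether an upper limit on counts compressed the highest values is not known from the sources used here. Levels are given as counts in a library of 1000000 after TMM scaling (CPM). In the normoxic libraries the 8 alveolar macrophage markers summed to 1565 to 1929 CPM in AM, the 7 dendritic cell markers to 2213 to 2936 CPM in DC and the 5 classical monocyte markers to 2755 to 3891 CPM in Ly6Chi. These sorts were not free of other markers. Normoxic DC also held classical monocyte markers at 1220 to 1494 CPM, interstitial macrophage markers at 939 to 1449 CPM and B cell markers at 270 to 769 CPM. Normoxic Ly6Chi held B cell markers at 217 to 324 CPM. The 5 epithelium markers summed to medians of 1463, 845, 877 and 933 CPM in normoxic AM, DC, Ly6Chi and Ly6Clo. Their highest sums were 2639, 2016, 1848 and 1405 CPM, and their lowest in AM was 254 CPM. The 4 endothelium markers summed to 93.4 to 513 CPM in normoxic AM and 119 to 445 CPM in normoxic Ly6Chi. In normoxic DC and Ly6Clo they summed to at most 166 and 187 CPM. The Ly6Clo sort held alveolar macrophage markers at 584 to 1036 CPM and interstitial macrophage markers at 1023 to 2296 CPM beside non-classical monocyte markers at 423 to 1240 CPM, so it is called by its gate here. In sorted bulk samples fewer cells of a type and less RNA per cell cannot be told apart.

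In build GRCm38, Gbp5, Gbp7, Gbp3 and Gbp2 lie in this order on the plus strand of chromosome 3, from chr3:142493978-142522344 (Gbp5) to chr3:142620602-142638008 (Gbp2). Gbp9 is at chr5:105077630-105139539 on the minus strand. On chromosome 11, Irgm1 is at chr11:48861968-48871683 and Tgtp2 at chr11:49057194-49064206, both on the minus strand, and Igtp (chr11:58199556-58207591) and Irgm2 (chr11:58199618-58222782) are annotated over each other on the plus strand. The reads were counted on the older build NCBIM37, so these positions name the genes and were not used to count. Reads of Igtp and Irgm2, and of Tgtp2 and its near-identical neighbour Tgtp1, could have been split by the authors' counting, and values of these 4 genes are uncertain to that extent.

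Promoter sequences are shown because both interferon elements named above can be read in them. RefSeq entries (GRCm38.p6, 250 bases before to 50 bases after the start) were found for 8 of the 10 members and not used for Gbp9 and Iigp1. Both strands were searched for the ISRE pattern GAAANNGAAA and the GAS pattern TTCNNNGAA, in which N is any base. These members had 9 entries, with 2 for Gbp3. An ISRE match was present in all entries but the second of Gbp3, and so in each of the 8 members, against 3.44% of 32851 promoters of the same length. A GAS match was present in 5 members (Gbp5, Gbp7, Irgm2, Igtp and Tgtp2), against 8.30% of promoters. The capitals below mark these matches, 5′ to 3′ on the gene's strand, for a member with an ISRE match alone (Gbp2), a regulator with 2 overlapping ISRE matches (Irgm1), a regulator with a GAS and an ISRE match side by side (Igtp) and a GBP with 2 GAS matches and an ISRE match (Gbp7).
Gbp2 promoter: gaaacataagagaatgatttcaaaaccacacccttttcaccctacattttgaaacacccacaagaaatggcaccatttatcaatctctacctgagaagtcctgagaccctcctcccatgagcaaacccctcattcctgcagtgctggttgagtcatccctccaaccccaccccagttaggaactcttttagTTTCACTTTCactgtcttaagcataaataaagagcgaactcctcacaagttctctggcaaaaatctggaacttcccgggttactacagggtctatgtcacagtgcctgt
Irgm1 promoter: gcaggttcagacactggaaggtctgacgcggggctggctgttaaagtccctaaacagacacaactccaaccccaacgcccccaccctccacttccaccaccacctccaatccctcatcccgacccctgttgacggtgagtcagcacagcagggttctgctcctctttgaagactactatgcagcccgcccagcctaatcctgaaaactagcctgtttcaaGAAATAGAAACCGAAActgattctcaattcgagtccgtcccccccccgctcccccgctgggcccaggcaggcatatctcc
Igtp promoter: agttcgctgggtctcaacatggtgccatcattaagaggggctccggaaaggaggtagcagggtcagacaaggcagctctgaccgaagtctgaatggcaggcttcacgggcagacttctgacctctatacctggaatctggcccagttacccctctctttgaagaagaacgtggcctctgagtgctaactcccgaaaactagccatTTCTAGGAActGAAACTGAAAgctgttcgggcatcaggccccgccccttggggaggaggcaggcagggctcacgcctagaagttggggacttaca
Gbp7 promoter: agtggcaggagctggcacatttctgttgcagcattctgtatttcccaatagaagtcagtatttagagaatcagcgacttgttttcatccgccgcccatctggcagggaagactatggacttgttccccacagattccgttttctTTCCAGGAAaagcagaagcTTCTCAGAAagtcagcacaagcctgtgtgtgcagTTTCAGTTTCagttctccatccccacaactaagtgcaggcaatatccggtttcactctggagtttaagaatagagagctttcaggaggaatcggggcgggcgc
The Gbp2 window is chr3:142620413-142620712 (plus strand), with its ISRE match at bases -59 to -50 from the start. The Irgm1 window is chr11:48871371-48871670 (minus strand), with matches at -30 to -21 and -24 to -15. The Igtp window is chr11:58199306-58199605 (plus strand), with the GAS match at -45 to -37 and the ISRE match at -34 to -25, and Irgm2 carries the same pair of elements at -75 to -67 and -64 to -55. The Gbp7 window is chr3:142530086-142530385 (plus strand), with GAS matches at -106 to -98 and -87 to -79 and an ISRE match at -53 to -44. A match is a description of the letters and no evidence that a factor binds there.

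In air, the Ly6Chi sort had the highest mean level of 7 of the 9 members, and AM the lowest or joint lowest of all 9. The sum of the 9 members was 1049 ± 175 CPM in Ly6Chi (SD, n = 6), 686 ± 129 CPM in DC (n = 6), 408 ± 57.4 CPM in Ly6Clo (n = 5) and 156 ± 14.7 CPM in AM (n = 6). The ranges of single libraries overlapped between Ly6Chi (753 to 1294 CPM) and DC (492 to 813 CPM), while every AM library (136 to 180 CPM) lay below every library of the other sorts. The lowest Ly6Clo library was at 337 CPM and the highest at 496 CPM. In litters 93, 100 and 108 the means were 1047, 917 and 1183 CPM in Ly6Chi, 635, 614 and 810 CPM in DC, 409, 416 and 391 CPM in Ly6Clo and 150, 169 and 151 CPM in AM. The order of the sorts was the same in each litter.

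To compare members with each other, CPM were divided by exonic length in kilobases. Igtp, a regulator needed for resistance to Toxoplasma in mice, was the most abundant member per length in Ly6Chi, at 92.4 ± 18.0 CPM per kb (SD, n = 6), followed by Irgm1, a regulator tied to autophagy and the control of mycobacteria, at 66.9 ± 13.7. Gbp2, which coats Toxoplasma vacuoles in mouse cells, stood at 35.5 ± 11.6 CPM per kb in Ly6Chi. Irgm2, the remaining regulator, stood at 20.5 ± 7.05 CPM per kb in Ly6Chi and 2.93 ± 2.75 in AM. In AM the order differed: Irgm1 was at 10.4 ± 1.59 CPM per kb, Gbp2 at 7.58 ± 3.96, Gbp7 at 6.98 ± 1.62 and Igtp at 5.89 ± 3.45. The SDs of these last 3 members overlap in AM.

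**Figure D1:**
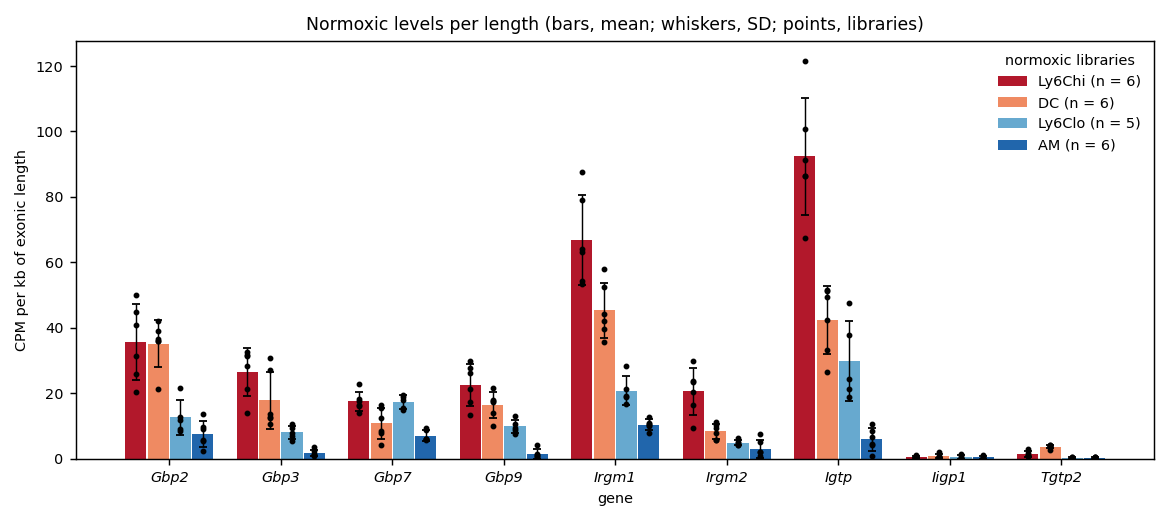
Normoxic level of the 9 members per exonic length (CPM per kb, linear axis) in Ly6Chi, DC, Ly6Clo and AM libraries. Bars are means, whiskers SDs and points libraries. Igtp reached 92.4 CPM per kb in Ly6Chi against 5.89 in AM, while Iigp1 and Tgtp2 stayed near 0 in most sorts.

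Of the effectors, Iigp1 was close to absent in air. It averaged 0.58 CPM per kb in Ly6Chi, 0.75 in DC, 0.54 in Ly6Clo and 0.35 in AM, and had no read in 4 of the 23 normoxic libraries. Tgtp2 averaged 1.32 ± 0.90 CPM per kb in Ly6Chi, 3.66 ± 0.58 in DC, 0.23 ± 0.23 in Ly6Clo and 0.23 ± 0.25 in AM. DC were thus the sort with the most Tgtp2, at 7.54 to 12.1 CPM in every library, whereas 3 of 6 AM and 2 of 5 Ly6Clo libraries held no Tgtp2 read. A library without a read still allows up to 3 counts, which is 1.25 to 5.44 CPM at these depths and covers counting error only.

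These differences between sorts were tested over the 23 normoxic libraries with edgeR's quasi-likelihood test, with litter as a term and Benjamini-Hochberg adjustment over 11979 genes. The filter on low counts kept 8 members and dropped Iigp1. SEs here and below were derived from the fold change and the F statistic, since this test gives none. The test does not take into account that libraries of several sorts may come from the same pup. All 8 members were higher in Ly6Chi than in AM, where 28.3% of all genes were higher and 24% lower, or 52.2% in either direction. The differences ran from a log2 fold change of 1.40 ± 0.22 (SE) for Gbp7, adjusted p = 8.75e-06, to 4.40 ± 0.38 for Gbp9, adjusted p = 5.49e-10. Igtp differed by 3.92 ± 0.29, Gbp3 by 3.85 ± 0.31, Irgm2 by 2.98 ± 0.44, Irgm1 by 2.70 ± 0.16, Gbp2 by 2.23 ± 0.31 and Tgtp2 by 2.20 ± 0.67. The median over the members was 2.84. All 8 were also higher in DC than in AM, where 27.5% of all genes were, from 0.65 ± 0.23 for Gbp7 (adjusted p = 0.0189) to 3.93 ± 0.38 for Gbp9. Tgtp2 came next to Gbp9 there, at 3.73 ± 0.64 (adjusted p = 2.88e-05).

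Ly6Clo stood above AM in 5 members, where 14.2% of all genes were higher and 7.28% lower: Gbp9 (3.20), Igtp (2.30), Gbp3 (2.16), Gbp7 (1.36) and Irgm1 (0.99). Gbp2 (0.72, adjusted p = 0.129 by edgeR), Irgm2 (0.89, adjusted p = 0.194) and Tgtp2 (-0.0047, adjusted p = 0.995) did not pass. Gbp7, which helps to assemble the NADPH oxidase on phagosomes in mouse macrophages, had another order than the rest. It stood at 78.3 to 128 CPM in Ly6Chi, 22.6 to 91.6 CPM in DC and 82.7 to 110 CPM in Ly6Clo. The edgeR log2 fold change of Gbp7 was 0.04 ± 0.22 for Ly6Chi against Ly6Clo (adjusted p = 0.902) and -0.71 ± 0.22 for DC against Ly6Clo (adjusted p = 0.0206). The other 7 members tested were higher in Ly6Chi than in Ly6Clo, where 15.7% of all genes were, from Gbp9 at 1.201 to Tgtp2 at 2.20.

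Between the sorts with the highest levels, 5 members were higher in Ly6Chi than in DC, where 14.4% of all genes were: Irgm2 by 1.31 ± 0.38, Igtp by 1.15 ± 0.24, Gbp7 by 0.76 ± 0.21, Gbp3 by 0.65 ± 0.24 and Irgm1 by 0.58 ± 0.14 (log2, SE). Tgtp2 was lower in Ly6Chi, at a log2 fold change of -1.53 ± 0.50 with adjusted p = 0.0233 by edgeR, as were 14.2% of all genes. With either direction counted, 6 of 8 members and 28.7% of genes differed. Gbp2 (0.05, adjusted p = 0.929) and Gbp9 (0.47, adjusted p = 0.22) did not pass. Without litter 93, and likewise without litter 100, 3 members in place of 6 passed in that comparison, with 17% and 26.9% of all genes called. DC stood above Ly6Clo in 4 members (Tgtp2, Gbp2, Irgm1 and Gbp3), where 11.7% of all genes did, and below it in Gbp7 alone, where 12.7% of genes were lower and 24.4% differed in either direction. Gbp9 (0.73, adjusted p = 0.0843), Irgm2 (0.78, adjusted p = 0.209) and Igtp (0.47, adjusted p = 0.215) did not pass between DC and Ly6Clo.

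Other genes of the pathway were read from lists chosen by hand. For comparison, 28.3% of all genes were called higher in Ly6Chi than in AM and 24% lower, or 52.2% in either direction. Ly6Chi stood above AM in 7 of 10 other GBP and IRG genes tested and below it in 1, in 10 of 11 interferon gamma signalling genes, in 25 of 26 type I interferon genes and in 8 of 15 partner genes of GBPs and IRGs, with 2 partner genes lower. Ifi47, another IRG, differed by 3.71 ± 0.26 on the log2 scale (adjusted p = 7.22e-12 by edgeR). Irf1 differed by 2.19, the receptor chain Ifngr1 by 1.73 and Gsdmd, the pore-forming protein released by caspases, by 1.72. Of 11 interferon gamma targets tested, 7 were higher and 1 lower. The lower one was Cd274, which encodes PD-L1, at -2.27 ± 0.23 (adjusted p = 5.42e-09). The Ly6Chi libraries also held neutrophil granule transcripts: the 6 markers summed to 590 to 1805 CPM there, against 6.86 to 750 CPM in DC, 1.75 to 129 CPM in Ly6Clo and 0.735 to 154 CPM in AM. Ly6g, the defining neutrophil marker, was at 0 to 7.12 CPM in Ly6Chi and at 0 in all normoxic AM and Ly6Clo libraries. The part of these cells in the order of the sorts was not tested.

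Hyperoxia against normoxia is the treatment comparison of the series, and its title names interferon gamma. Gbp2 shows the pattern of most members. In AM it stood at 10.9, 13.8, 674, 12.4 and 468 CPM in hyperoxic replicates 1 to 5, against a lowest, median and highest normoxic level of 5.88, 18.3 and 34.2 CPM. The litter 100 library (replicate 3) and replicate 5 of litter 108 lay far above the normoxic range, and the other 3 hyperoxic libraries lay inside it. In Ly6Clo the hyperoxic values were 18.7, 28.3, 1101, 38.9 and 668 CPM, against 22.4, 31.8, 29.5, 54.6 and 20.96 CPM in normoxia. Replicates 3 and 5 were again the high ones. In DC they were 65.9, 71.0, 1025, 83.9 and 385 CPM, against 53.5, 91.2 and 106 CPM as the lowest, median and highest in normoxia. In Ly6Chi they were 136, 131, 1009, 103 and 249 CPM, against 51.1, 90.7 and 126 CPM. The groups overlapped in every population, and in Ly6Chi 4 of 5 hyperoxic libraries exceeded the normoxic maximum, replicates 1 and 2 by a small margin.

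The replicate 3 library of the Ly6Clo sort thus held 34.5 times the normoxic mean of Gbp2, that of AM 35.3 times, that of DC 11.6 times and that of Ly6Chi 11.3 times. Gbp3 reached 74.2 and 102 CPM in replicates 3 and 5 of AM, against at most 11.3 CPM in normoxia. In replicates 3 and 5 of Ly6Clo it reached 231 and 136 CPM, against at most 34.1 CPM in normoxia. In DC the values of these libraries were 347 and 143 CPM, against at most 101 CPM in normoxia, and in Ly6Chi 312 and 130 CPM, against at most 106 CPM. All other hyperoxic libraries of AM and DC lay at or below the normoxic maximum of Gbp3. In Ly6Chi replicate 2 (133 CPM) lay as high as replicate 5, and in Ly6Clo replicate 1 (37.3 CPM) lay just above the normoxic maximum.

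**Figure D2:**
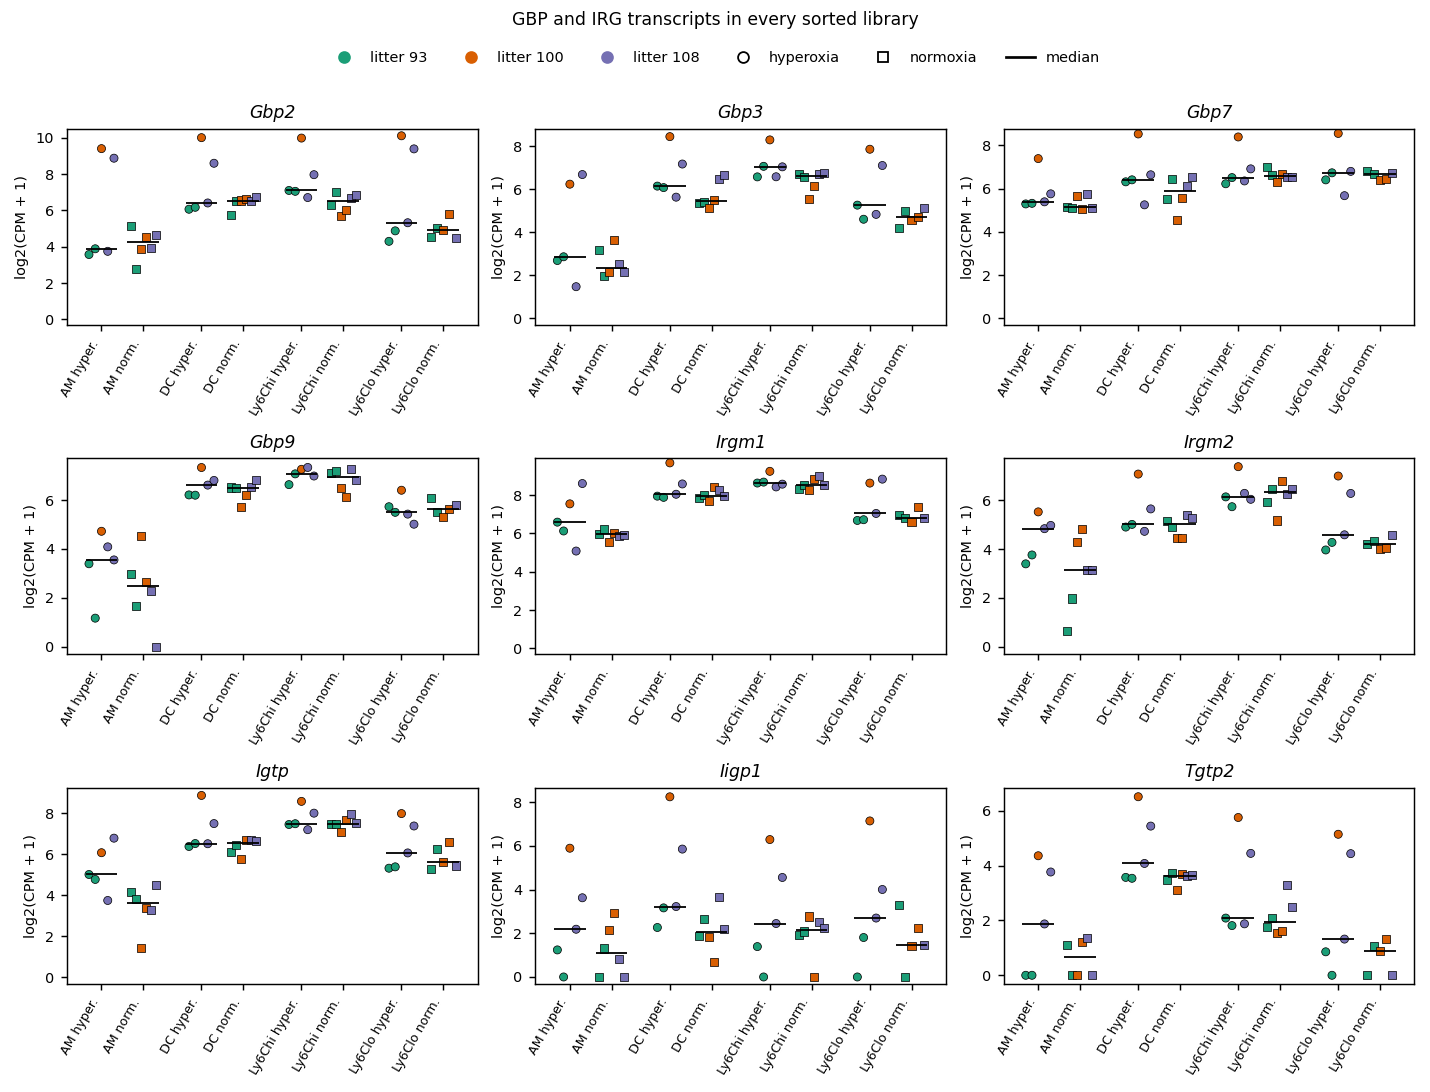
Level of each member in all 43 libraries as log2(CPM + 1), with hyperoxic groups (circles) left of normoxic groups (squares), colours for litters and lines for medians. The orange circle of litter 100 and 1 of the purple circles of litter 108 stand high in most panels, for Gbp2 in AM at 674 and 468 CPM against a normoxic maximum of 34.2 CPM.

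Gbp7 behaved differently from Gbp2 and Gbp3 in that the litter 100 library alone stood clear of the rest. Hyperoxic Gbp7 values were 38.1, 38.9, 166, 40.8 and 53.0 CPM in AM, against 32.5, 33.9 and 52.4 CPM as the lowest, median and highest in normoxia. In DC they were 78.4, 83.6, 367, 37.0 and 98.4 CPM, against 22.6, 58.0 and 91.6 CPM. In Ly6Chi they were 73.6, 89.9, 333, 80.7 and 119 CPM, against 78.3, 95.1 and 128 CPM. In each sort replicate 3 held 2.79 to 3.73 times the level of replicate 5, which lay inside or just above the normoxic range. Ly6Clo had 373 CPM in replicate 3 and 49.9 to 110 CPM in the other hyperoxic libraries, against 82.7 to 110 CPM in normoxia. Gbp9 lay at 31.3 to 83.4 CPM in hyperoxia against 38.8 to 67.3 CPM in normoxia in Ly6Clo, and at 98.0 to 160 CPM against 68.3 to 154 CPM in Ly6Chi. Its log2 fold change by edgeR was 0.02 ± 0.27 (SE) in Ly6Clo, 0.18 ± 0.19 in Ly6Chi, 0.26 ± 0.22 in DC and 1.26 ± 0.67 in AM.

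Among the regulators, Irgm1 in AM was at 95.2, 68.9, 186, 32.8 and 388 CPM in hyperoxia, against 45.8, 60.9 and 74.3 CPM as the lowest, median and highest in normoxia. In Ly6Clo it was at 101, 104, 394, 131 and 455 CPM in hyperoxia, against 123, 111, 96.2, 164 and 109 CPM in normoxia. In these sorts replicate 5 held more Irgm1 than replicate 3, the opposite of DC, where hyperoxic values were 245, 235, 820, 263 and 382 CPM against 207, 250 and 336 CPM in normoxia. In Ly6Chi replicate 3 alone, at 604 CPM, exceeded the normoxic range of 310 to 509 CPM. Igtp in AM was at 31.3, 26.3, 66.4, 12.4 and 109 CPM in hyperoxia, against 1.70, 11.3 and 21.5 CPM in normoxia. Igtp in AM was thus above every normoxic library in 4 of 5 hyperoxic ones, including both of litter 93. In DC, Ly6Chi and Ly6Clo only replicates 3 and 5 exceeded the normoxic range of Igtp, with 466 and 179 CPM in DC, 381 and 255 CPM in Ly6Chi and 252 and 165 CPM in Ly6Clo. Irgm2 had its highest hyperoxic value in replicate 3 of each sort, at 44.9 CPM in AM, 133 in DC, 164 in Ly6Chi and 126 in Ly6Clo.

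Replicates 3 and 5 were also the high libraries of the effectors. Iigp1 in DC was at 3.81, 7.96, 304, 8.35 and 57.0 CPM in hyperoxia, against 0.631, 3.14 and 11.6 CPM as the lowest, median and highest in normoxia. In Ly6Clo it was at 0, 2.50, 141, 5.49 and 15.1 CPM in hyperoxia, against 8.73, 0, 1.69, 3.69 and 1.75 CPM in normoxia. Replicates 3 and 5 exceeded every normoxic library in both sorts, and replicate 3 of DC held 69.2 times the normoxic mean. In Ly6Chi, replicates 3 and 5 had 77.4 and 22.5 CPM of Iigp1 against at most 5.82 CPM in normoxia, and in AM 58.6 and 11.4 CPM against at most 6.64 CPM. Tgtp2 was at 90.3 and 42.5 CPM in replicates 3 and 5 of DC, against at most 12.1 CPM in normoxia, and at 53.0 and 20.8 CPM in those of Ly6Chi, against at most 8.89 CPM. Replicates 3 and 5 held 19.5 and 12.6 CPM of Tgtp2 in AM and 34.3 and 20.7 CPM in Ly6Clo, where no normoxic library exceeded 1.57 CPM.

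Over the 9 members, replicate 3 exceeded all normoxic libraries of its sort in 9 members in AM, 9 in DC, 8 in Ly6Chi and 9 in Ly6Clo. The same was true of 26.6%, 18.8%, 28.8% and 28.2% of the 10044 genes with a mean of at least 10 CPM in those 4 libraries. Replicate 5 did so in 8 members in AM, 8 in DC, 5 in Ly6Chi and 8 in Ly6Clo, against 22.2%, 18.5%, 16.9% and 25.7% of genes. Replicates 1, 2 and 4 exceeded the normoxic range in 0 to 2 members each, against 8.89% to 17.9% of genes. Over the 36 pairs of a member and a sort, the highest hyperoxic library was replicate 3 in 31, replicate 5 in 4 and replicate 4 in 1. The labels do not say whether the 4 libraries numbered 3, or the 4 numbered 5, came from 1 pup each, so the sorts cannot be counted as independent repeats of this pattern. The median ratio of the members to the normoxic mean was 5.58, 5.94, 3.40 and 7.01 in replicate 3 of AM, DC, Ly6Chi and Ly6Clo, and 6.42, 2.10, 1.37 and 4.26 in replicate 5. In the remaining 12 hyperoxic libraries it lay between 0.84 and 1.09. Replicate 3 was the shallowest hyperoxic library of every sort, with 551960 counts in AM, 1309747 in DC, 1026528 in Ly6Chi and 647844 in Ly6Clo, while replicate 5 had 1636916 to 2298828 counts. The part of depth in this pattern was not tested.

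**Figure D3:**
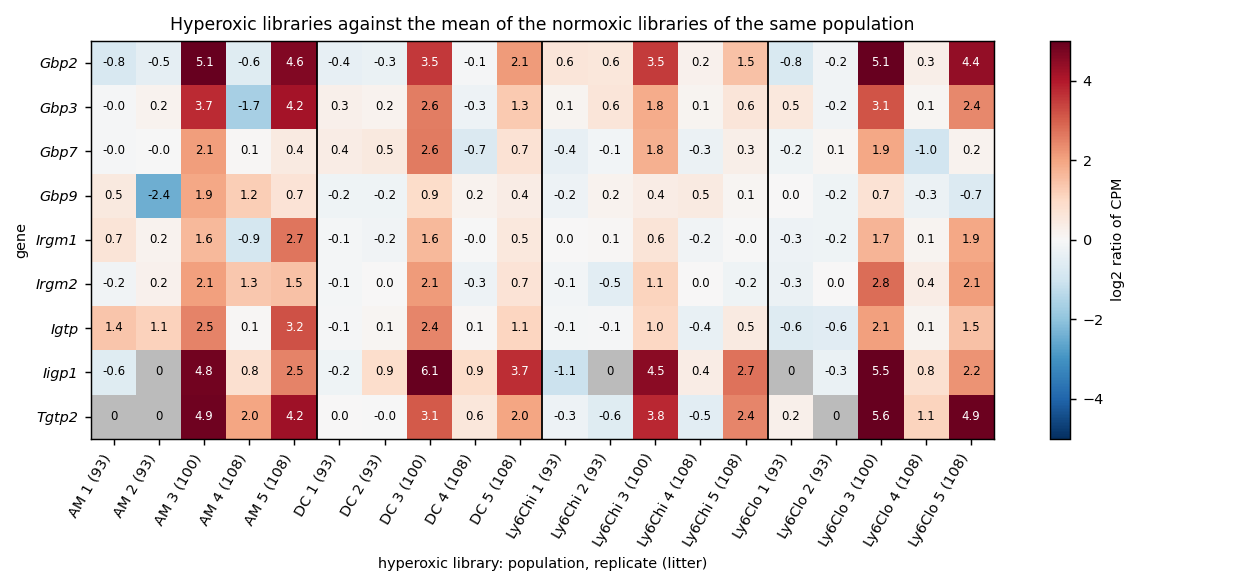
Log2 ratio of each hyperoxic library to the normoxic mean of its sort (columns, with the litter in brackets) for the 9 members (rows). The number in each coloured cell is the log2 ratio, grey cells held no read, and the colour scale ends at the shades shown on the bar. Columns 3 and 5 are red in most members, with medians of 5.58 and 6.42 times the normoxic mean in AM.

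Despite these libraries, no member passed the test between hyperoxia and normoxia in any sort. The test was edgeR's quasi-likelihood test with litter as a term and adjustment over all genes of the sort. It called 0 of 6 members tested in AM (0.11% of 9986 genes called), 0 of 9 in DC (0% of 11274), 0 of 7 in Ly6Chi (0% of 10844) and 0 of 7 in Ly6Clo (0% of 10188). At an unadjusted p under 0.05 there were 3, 2, 2 and 2 members, where AM had 9.91%, DC 8.85%, Ly6Chi 5.45% and Ly6Clo 5.3% of all genes. The filter on low counts asks for reads in about as many libraries as the smaller group holds, and it dropped Gbp3 in AM and Iigp1 and Tgtp2 in AM, Ly6Chi and Ly6Clo. Every estimate was positive. The median log2 fold change of the members was 1.52 in AM, 0.93 in DC, 0.26 in Ly6Chi and 0.82 in Ly6Clo, where the median over all genes tested was -0.010, 0.0009, -0.015 and -0.015.

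The errors of these estimates were wide. In AM, Gbp2 had a log2 fold change of 2.89 ± 1.27 (SE) with adjusted p = 0.503 by edgeR, Igtp 1.89 ± 0.55 with adjusted p = 0.253 and Irgm2 1.78 ± 0.41 with adjusted p = 0.16. In DC, Iigp1 had 3.25 ± 1.14 (adjusted p = 0.528), Gbp2 1.46 ± 0.64 (adjusted p = 0.573) and Tgtp2 1.43 ± 0.45 (adjusted p = 0.457). In Ly6Clo, Gbp2 had 2.79 ± 1.32 and Gbp3 1.55 ± 0.60, and in Ly6Chi Gbp2 had 1.49 ± 0.62. The adjusted p was 0.86 in Ly6Clo for Gbp2 and Gbp3 and 0.758 in Ly6Chi for Gbp2. DESeq2 called Irgm2 (adjusted p = 0.0158) and Igtp (adjusted p = 0.0275) in AM, where it called 1.11% of genes, and no member elsewhere, and limma voom called none. Fitted without the filter on low counts, edgeR called 6 members in AM, 7 in DC, 2 in Ly6Chi and 6 in Ly6Clo, against 1.65%, 1.73%, 1.15% and 0.859% of all genes.

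The edgeR estimates moved when replicates 3 and 5 were left out. Without both, the median log2 fold change of the members was 0.28 in AM, -0.03 in DC, -0.04 in Ly6Chi and -0.09 in Ly6Clo, with 0 members called by edgeR. This fit was chosen after the values were seen, and the DESeq2 fit and the fit without the filter on low counts were not repeated without these libraries. Without litter 100 alone the medians were 1.47, 0.30, -0.05 and 0.38, and without litter 93 they were 1.88, 1.33, 0.88 and 1.64. Whether the hyperoxia effect differs between the 4 sorts was tested over all 43 libraries: edgeR called 0 of 9 members and 0% of 12529 genes, and 0 members had an unadjusted p under 0.05, as 4.92% of genes did. Fitted without the filter on low counts, 4 members and 2.2% of 23846 genes were called in that test.

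**Figure D4:**
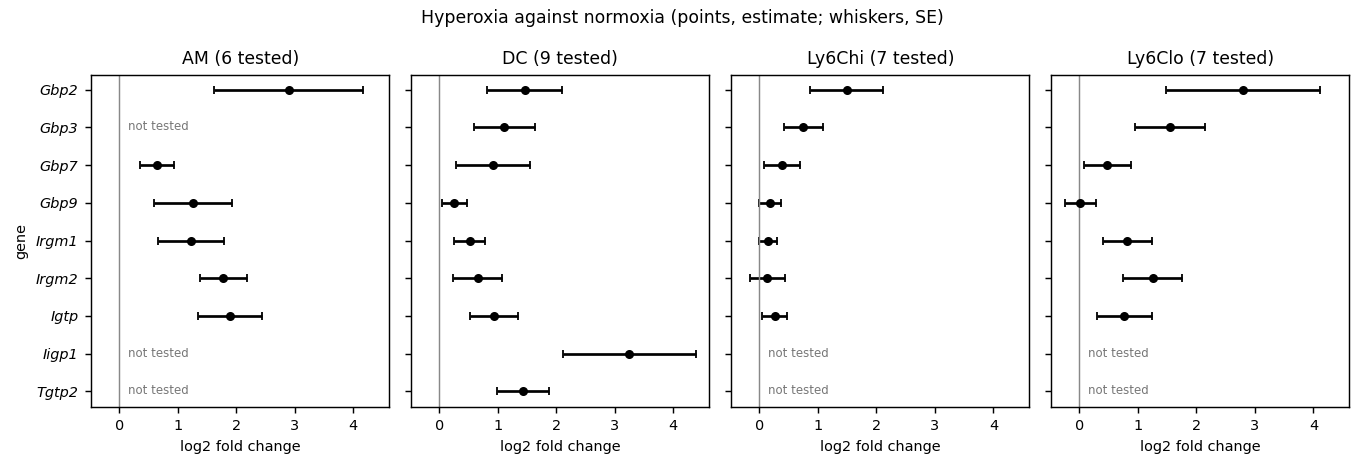
Log2 fold change of hyperoxia against normoxia per member in AM, DC, Ly6Chi and Ly6Clo, with the SE derived from F as whiskers and untested members named. Estimates lie right of 0, from 0.02 for Gbp9 in Ly6Clo to 3.25 for Iigp1 in DC, with SEs of up to 1.32.

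Taken by litter, the ratio of the hyperoxic to the normoxic mean of the summed members ran from 0.873 to 1.23 in litter 93. It was 1.23 in AM, 1.04 in DC, 1.04 in Ly6Chi and 0.873 in Ly6Clo. In AM the sum of replicate 1 of this litter, 201 CPM, lay above the normoxic range of 136 to 180 CPM. Single members departed from the sum: in AM of litter 93 the ratio was 6.28 for Irgm2, with 11.03 CPM in hyperoxia and 1.76 CPM in normoxia, and 1.90 for Igtp. For Irgm2 in AM it was 1.96 in litter 100 and 3.71 in litter 108. For the sum it was 7.79, 6.05, 3.36 and 6.57 in litter 100, where it rests on 1 hyperoxic library per sort. In litter 108 the ratio of the sums was 4.42, 1.31, 1.005 and 2.64. The litter 108 pair disagreed within itself, since its replicate 4 summed to 150 CPM in AM, 669 in DC, 1011 in Ly6Chi and 385 in Ly6Clo while its replicate 5 summed to 1184, 1447, 1366 and 1678 CPM. For Gbp2 the ratios in AM were 0.616, 37.3 and 12.6 in litters 93, 100 and 108. The normoxic libraries of litter 100 were not high: their mean sum was 169 CPM in AM, 614 CPM in DC, 917 CPM in Ly6Chi and 416 CPM in Ly6Clo, against 150, 635, 1047 and 409 CPM in litter 93.

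No member differed between litters by edgeR once oxygen was a term, with 0 called in each sort, where 0% of genes were called in AM, 21.2% in DC, 0.526% in Ly6Chi and 0.285% in Ly6Clo. At an unadjusted p under 0.05 there were 2 members in AM and 0 in the other sorts, where AM had 18.5%, DC 36.9%, Ly6Chi 26.6% and Ly6Clo 20% of genes. Whether the hyperoxia effect differs between litters was tested with litter-by-oxygen terms. EdgeR called 0 members in AM (0% of genes), DC (0.0266%), Ly6Chi (0%) and Ly6Clo (0%), with the smallest adjusted p for Gbp7 in Ly6Clo at 0.0826 and Irgm2 in DC at 0.0922. At an unadjusted p under 0.05 there were 1 of 6 members in AM (5.71% of genes), 9 of 9 in DC (9.72%), 6 of 7 in Ly6Chi (15.2%) and 4 of 7 in Ly6Clo (18.5%). DESeq2 called 0 members in AM, 7 in DC, 4 in Ly6Chi and 2 in Ly6Clo, where it called 0.14%, 1.47%, 3.43% and 3.2% of genes. In DC edgeR called 7 members without hyperoxic replicate 4 (0.756% of genes) and 9 without replicate 5 (1.65%), and in Ly6Clo 6 (4.57%) and 5 members (2.67%) without these libraries. These fits leave 1 hyperoxic library in litter 100 and 1 in litter 108, which are assumed to vary like the other groups.

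Replicate 3 also held more of the other interferon genes in every sort, while replicate 5 did so only for some lists and sorts. Summed over the 26 type I interferon genes, replicate 3 stood at 2.87, 2.17, 1.45 and 2.92 times the normoxic median of AM, DC, Ly6Chi and Ly6Clo, and replicate 5 at 2.46, 0.797, 0.634 and 1.41 times. For the 9 members the same ratios were 8.51, 5.18, 2.87 and 6.77 in replicate 3 and 7.67, 2.02, 1.27 and 4.15 in replicate 5. Replicate 5 of DC and Ly6Chi thus held more GBP and IRG transcript than normoxic libraries and less type I interferon transcript than their median. A type I sum below that median was not particular to replicate 5. In replicates 1, 2 and 4 it stood at 0.874, 0.827 and 0.879 times the normoxic median in DC, and at 1.04, 1.05 and 0.861 times in Ly6Chi. The 15 interferon gamma targets stood at 2.38, 2.39, 3.13 and 2.57 times the normoxic median in replicate 3 and at 2.14, 1.21, 1.23 and 1.75 times in replicate 5. The 15 partner genes of GBPs and IRGs, among them caspases, inflammasome parts and autophagy proteins, stayed between 1.14 and 1.45 times in both libraries of all sorts. In the other hyperoxic libraries they lay between 0.976 and 1.31 times.

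**Figure D5:**
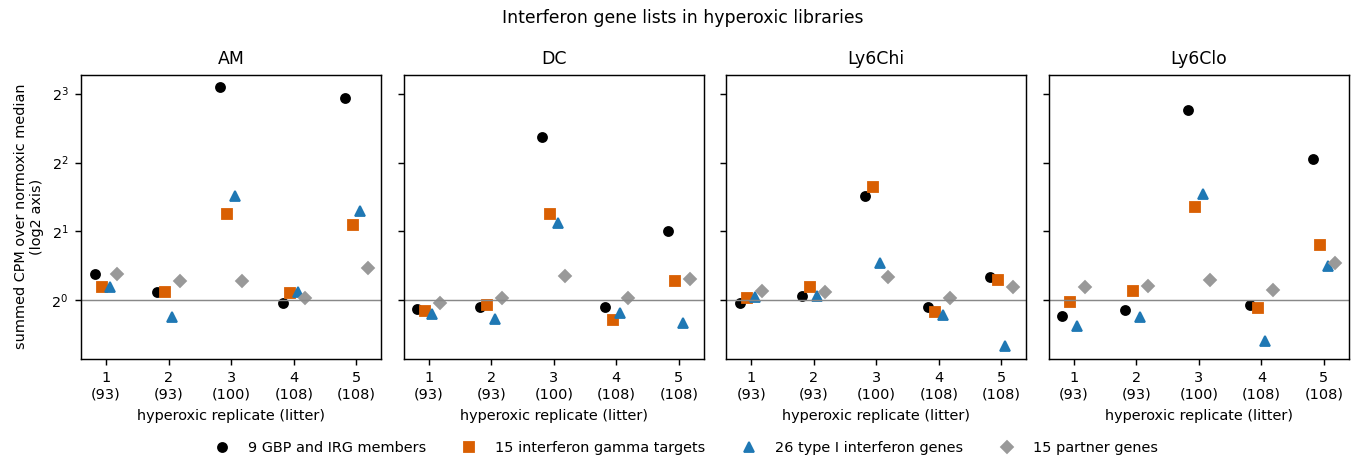
Summed CPM of 4 gene lists in each hyperoxic library over the normoxic median of its sort (log2 axis), with the litter in brackets under the replicate number. The members (black circles) stand at 8.51 and 7.67 in replicates 3 and 5 of AM, above the type I interferon genes at 2.87 and 2.46 in the same libraries.

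In replicate 3 the number of type I interferon genes above all normoxic libraries was 22 of 26 in AM, 20 in DC, 13 in Ly6Chi and 23 in Ly6Clo, and in replicate 5 it was 17, 1, 0 and 12. Of the 15 interferon gamma targets it was 12, 12, 13 and 13 in replicate 3 and 9, 7, 7 and 11 in replicate 5. Of 15 other GBP and IRG genes it was 11, 11, 11 and 10 in replicate 3 and 8, 8, 5 and 8 in replicate 5. The shares of all genes above the normoxic range in these libraries are those given for the members. Cxcl9, a chemokine induced mainly by interferon gamma, was at 93.8, 220, 152 and 203 CPM in replicate 3 of AM, DC, Ly6Chi and Ly6Clo. It was picked after its values were seen. Its levels in the other libraries are not given here, so these values show no difference. EdgeR called no gene of these lists or of the interferon gamma signalling list between hyperoxia and normoxia in any sort. At an unadjusted p under 0.05 there were, in AM, 3 of 3 other GBP and IRG genes tested, 3 of 9 signalling genes, 2 of 6 interferon gamma targets and 2 of 15 type I interferon genes, where 9.91% of all genes did so. In DC it was 3 of 10, 3 of 11, 3 of 10 and 3 of 26 (8.85% of genes), in Ly6Chi 0 of 9, 2 of 11, 5 of 9 and 2 of 26 (5.45%), and in Ly6Clo 0 of 7, 2 of 10, 2 of 7 and 2 of 21 (5.3%). The estimates in AM were 1.70 ± 0.63 for Ifi47 (adjusted p = 0.379), 1.72 ± 0.62 for Gbp4 (adjusted p = 0.324), 1.49 ± 0.54 for Irf1 (adjusted p = 0.387) and 0.90 ± 0.18 for Cd274 (adjusted p = 0.0887).

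Markers of other cells were read in the same libraries. The 10 T and NK cell markers summed to 553 CPM in replicate 3 of Ly6Chi, against 2.71 to 55.9 CPM in its other hyperoxic libraries and 0 to 102 CPM in normoxia. Gzma stood at 233 CPM, Nkg7 at 231 CPM and Cd3d at 45.6 CPM there, and Prf1 was at 0. These genes and Cxcl9 were picked after their values were seen. In that library 4 of the 10 markers exceeded all normoxic libraries, as did 28.8% of genes with a mean of at least 10 CPM. Ifng itself was at 25.5 CPM in that library and at 1.73 CPM in replicate 5 of Ly6Chi. It was at 0 in all normoxic Ly6Chi libraries and in all AM and Ly6Clo libraries. Its levels in DC and in the other hyperoxic Ly6Chi libraries are not given here. In replicate 3 of AM, DC and Ly6Clo the T and NK markers summed to 44.9, 87.2 and 13.1 CPM, within normoxic maxima of 97.1, 285 and 632 CPM. The members' median ratios to normoxia there, 5.58, 5.94 and 7.01, were above the 3.40 of Ly6Chi. Neutrophil markers summed to 15.6, 13.2, 762 and 3.27 CPM in replicate 3 of AM, DC, Ly6Chi and Ly6Clo, inside the normoxic range of each sort. In Ly6Chi the 5 non-classical monocyte markers summed to 374 and 444 CPM in replicates 3 and 5, against 623 to 982 CPM in normoxia. In Ly6Clo they summed to 345 and 99.9 CPM in these libraries, against 423 to 1240 CPM. The 4 mesenchyme markers summed to 227 CPM in replicate 3 of Ly6Chi, against 3.65 to 25.4 CPM in normoxia. The 4 B cell markers summed to 282 to 498 CPM in hyperoxic Ly6Chi, against 217 to 324 CPM in normoxia. In hyperoxic Ly6Chi replicates 1 to 5, 4, 4, 2, 4 and 0 of them exceeded all normoxic libraries, against 10.7%, 10.9%, 28.8%, 8.89% and 16.9% of genes. Of the 4 interstitial macrophage markers tested in AM, 2 had an unadjusted p under 0.05 by edgeR, against 9.91% of all genes. All 4 had a positive estimate for hyperoxia, with a median log2 fold change of 1.504. Their sum in AM was 1112, 832, 1045, 634 and 490 CPM in hyperoxic replicates 1 to 5, against 486 to 841 CPM in normoxia, so replicate 1 was as high as replicate 3. The number of the 5 above all normoxic libraries was 4, 1, 4, 3 and 3, against 17.9%, 16%, 26.6%, 15% and 22.2% of genes. In Ly6Clo these markers summed to 1277 and 586 CPM in replicates 3 and 5, against 1023 to 2296 CPM in normoxia. The 5 classical monocyte markers in AM summed to 252, 194, 264, 126 and 141 CPM in hyperoxic replicates 1 to 5, against 66.4 to 176 CPM in normoxia, and the 4 tested had a median log2 fold change of 0.66. Epithelium markers summed to at most 2055, 1675, 1703 and 1404 CPM in hyperoxic AM, DC, Ly6Chi and Ly6Clo. Endothelium markers summed to at most 332, 118, 258 and 182 CPM there. All these maxima lay below the normoxic maximum of the same sort. The part of the markers of other cells in the members' levels was not tested.

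Members followed each other across libraries to different degrees. After the mean of each of the 8 groups was subtracted from log2 CPM, the Pearson correlation of a member with the mean of the other 8 over the 43 libraries was 0.91 for Gbp2, 0.88 for Tgtp2, 0.85 for Gbp3, 0.78 for Irgm1, 0.78 for Iigp1, 0.75 for Gbp7, 0.67 for Igtp, 0.65 for Irgm2 and 0.36 for Gbp9. The points share library depth, and replicates 3 and 5 of each hyperoxic group carry much of the spread. Of 9890 other genes with a mean of at least 10 CPM, the 8 most like the mean of the members over all 43 libraries included Ifi47 (0.93), Gm12250 (0.92), Irf1 (0.90), Calhm6 (0.89), Rsad2 (0.88), Gbp4 (0.88) and Zbp1 (0.88). Ifi47, Gm12250 and Gbp4 are further IRG and GBP genes, and Rsad2 and Zbp1 are interferon-induced defence genes. After the group means were subtracted, the 8 most alike included Clcn7 (0.90), Ifi47 (0.90), Clec4e (0.88), Tapbp (0.87), Acod1 (0.87), Serpina3g (0.85) and Zbp1 (0.84). Clcn7 encodes a lysosomal chloride transporter, Clec4e the lectin Mincle, Tapbp the peptide-loading protein tapasin and Acod1 the enzyme that makes itaconate.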

How the data were processed

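RNA from sorted lung phagocytes was sequenced in 43 libraries. The authors deposited 1 table of raw whole-number counts per Ensembl gene. The submitters' processing notes name build NCBIM37 and, among the tools, TopHat and HTSeq 0.4.1, with FastQC, SAMtools and Picard beside them. Their settings and whether counting used strand are not given in the sources used here. The library kits carry no molecular identifiers, so intervals and limits cover counting error only. Symbols (32919 genes, all but 0.828% of counts) and exonic lengths came from GENCODE annotation of GRCm38 by identifier.

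Differential tests used edgeR 4.0.16 under R 4.3.3: filterByExpr (count minimum 10, total minimum 15), TMM scaling and robust quasi-likelihood F tests, with litter as a term. Genes were called at an adjusted p under 0.05. Hyperoxia was tested within each sort and sorts were compared over the normoxic libraries. Fold changes use a prior count of 0.125 and log2 CPM a prior count of 1. Each SE is the absolute log2 fold change divided by the square root of F. It is an approximation and is unreliable for fold changes near 0. Alternatives were DESeq2 1.42.0, limma 3.58.1 voom, other scaling, no filter, no litter term, and leaving out libraries under 1000000 counts, each litter and each library. A fit added later corrected the counts for an assumed upper limit per exonic base. The procedure was also run on simulated counts with a fixed dispersion, no litter effect and no library standing apart. That run does not bear on calls where such libraries occur.

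The members and lists were chosen with earlier results of these data known. All members are named, with at most 4 genes of each other list per comparison, those with the smallest p, and the 8 genes most like the members. One gene that this rule names is not reported here.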

Additional observations from a re-analysis of the deposited data

Results flagged for a closer look

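In 72 groups of a member and a sort under 1 oxygen condition, the highest or lowest library was compared with its nearest neighbour. In 16 it lay farther off than Dixon's 95% limit allows. Chance gives about 1 in 20 for values with a normal spread, which CPM of genes with few reads need not have. In 14 of these 16 the library was hyperoxic replicate 3, the only litter 100 library of its group, and it was the highest. These were Gbp7 at 166 CPM in AM, 367 in DC, 333 in Ly6Chi and 373 in Ly6Clo, Iigp1 at 58.6 CPM in AM, 304 in DC and 141 in Ly6Clo, and Gbp2 at 1009 CPM in Ly6Chi. They further held Gbp3 at 312 CPM in Ly6Chi, Irgm1 at 820 CPM in DC and 604 in Ly6Chi, Irgm2 at 133 CPM in DC and 164 in Ly6Chi, and Igtp at 466 CPM in DC. In some of these groups replicate 5 was also above every normoxic library, as for Gbp2 in Ly6Chi (249 CPM) and Iigp1 in DC (57.0 CPM). For Gbp2 in AM and Ly6Clo, where replicates 3 and 5 were both high, the limit was not passed. In normoxia, Gbp9 was high in replicate 3 of AM at 22.0 CPM and Gbp2 low in replicate 1 of DC at 53.5 CPM. The members share these libraries, so the 14 are not independent of each other.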

How the results depend on the processing

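No pairing by pup was possible, since no pup is named in the labels. Litter, the block they do give, was a term in the fits, and leaving it out moved no count for hyperoxia or sort pairs by over 1.5 times. Without the filter on low counts, hyperoxia called 6 members in AM, 7 in DC, 2 in Ly6Chi and 6 in Ly6Clo against 0 with it, litter called 4, 7, 3 and 7 (5.07%, 16.1%, 10.2% and 5.74% of all genes), the litter-by-oxygen terms 1, 9, 6 and 7 (0.873%, 3.02%, 3.9% and 4.21%), and the 4-sort comparison 4 (2.2%). DESeq2 called 2 members for hyperoxia in AM, and 7, 4 and 2 for litter by oxygen in DC, Ly6Chi and Ly6Clo. Leaving out single libraries gave 0 to 1 members for hyperoxia in AM (1 without hyperoxic replicate 4, where 0.382% of all genes were called). For litter it gave 0 to 2 members in AM and 0 to 1 in DC. The fits that called a member for litter called 14.9% of all genes in AM and 9.3% and 10.7% in DC. Litter-by-oxygen counts also moved in DC, Ly6Chi and Ly6Clo, in fits with 1 hyperoxic library of litter 100. Ly6Chi against DC called 3 members without litter 93 and 3 without litter 100, against 6. Apart from these, 79 of 85 alternative counts for hyperoxia and 196 of 198 for sort pairs stayed within 1.5 times. Litter-by-oxygen fits without a hyperoxic replicate 3 could not be fitted. The cause of these changes was not tested.

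Without replicates 3 and 5, chosen after seeing the data, log2 fold changes turned to -0.67 for Gbp2 and -0.13 for Irgm1 in AM. In DC they were -0.13 for Gbp2, -0.21 for Gbp9, -0.24 for Gbp7, -0.034 for Irgm1 and -0.31 for Irgm2. In Ly6Chi they were -0.038 for Gbp9, -0.35 for Gbp7, -0.19 for Irgm2 and -0.21 for Igtp, and in Ly6Clo -0.27 for Gbp9, -0.45 for Gbp7, -0.034 for Irgm1, -0.088 for Irgm2 and -0.14 for Igtp. Without litter 100 they were -0.13 for Gbp9 and -0.083 for Irgm2 in DC, -0.073 for Gbp9, -0.17 for Gbp7, -0.027 for Irgm1, -0.24 for Irgm2 and -0.050 for Igtp in Ly6Chi, and -0.35 for Gbp9 and -0.25 for Gbp7 in Ly6Clo. Gbp9 in Ly6Clo was -0.034 by voom, -0.0018 without the filter, -0.36 without small libraries and -0.027 without the litter term, and Gbp7 in Ly6Clo -0.26 without small libraries. Among sort pairs, Tgtp2 in Ly6Clo against AM was 0.0041 without the filter, 0.053 without litter 93 and 0.18 without litter 108. Gbp2 in Ly6Chi against DC was -0.20 without litter 93 and -0.042 without litter 108, and Gbp7 in Ly6Chi against Ly6Clo -0.021 without litter 93 and -0.028 without litter 100. With single libraries left out, estimates spanned 0 for 12 gene comparisons. These were Gbp9 (-0.14 to 0.35) and Irgm2 (-0.090 to 0.89) in DC, and Gbp9 (-0.083 to 0.31), Gbp7 (-0.18 to 0.57), Irgm1 (-0.036 to 0.26), Irgm2 (-0.24 to 0.26) and Igtp (-0.060 to 0.41) in Ly6Chi. In Ly6Clo they were Gbp9 (-0.36 to 0.26) and Gbp7 (-0.26 to 0.85), and among sort pairs Tgtp2 in Ly6Clo against AM (-0.45 to 0.37), Gbp2 in Ly6Chi against DC (-0.10 to 0.19) and Gbp7 in Ly6Chi against Ly6Clo (-0.047 to 0.098).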
